A study of Mus musculus with 4 samples.

Results

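The 6 genes examined here, of 13265 in the deposited table, are the core of the TGFβ pathway: the ligand gene *Tgfb1*, the receptor genes *Tgfbr2* and *Tgfbr1*, and the signal transducer genes *Smad2*, *Smad3* and *Smad4*. They were taken by symbol, and all 6 were present. The cells are CD4+ T cells positive for YFP, isolated from small intestines of C57BL/6 mice aged 7 to 8 months and captured for droplet-based scRNA-seq, in which each captured RNA molecule receives a unique molecular identifier (UMI). All groups carry *Il17a-cre* and *Rosa26-stop-yfp*, so YFP marks cells that have at some time switched on *Il17a*, and floxed sequence is meant to be recombined in those cells alone. TGFβR-KO mice carry in addition floxed alleles of *Tgfbr2*, TGFβR-CA mice carry a constitutively active form of *Tgfbr1* behind a floxed stop cassette, and TGFβR-WT mice are littermates that have no floxed *Tgfbr2* or *Tgfbr1* allele. The labels list 4 samples, 1 TGFβR-KO, 1 TGFβR-CA and 2 TGFβR-WT, each from pooled mice. Sequencing was done in 2 batches, and cells of TGFβR-WT mice were run in both, once beside TGFβR-KO and once beside TGFβR-CA.

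TGFβ1 is secreted in a latent form, which must be activated before it can bind TGFBR2. TGFBR2 then recruits and phosphorylates TGFBR1, and the kinase of TGFBR1 phosphorylates SMAD2 and SMAD3, which enter the nucleus with SMAD4 and regulate transcription. In T cells the pathway takes part in the differentiation of TH17 and regulatory T cells, restrains TH1 responses and promotes residence in the intestinal tissue. A constitutively active TGFBR1 signals without ligand, and a cell that lacks TGFBR2 cannot transmit the signal of TGFβ1.

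The table gives a condition and one of 8 cluster names for each of 5080 cells. There were 2975 cells labelled TGFβR-KO, 1098 labelled TGFβR-CA and 1007 labelled TGFβR-WT. By the endings of their names TGFβR-WT cells fall into 2 sets, the larger with 709 and the smaller with 298 cells, and no source ties a set to a sample or to a batch. The 2 sets were pooled into 1 TGFβR-WT sample, and each is also shown on its own. Differences between conditions could not be tested with 1 sample each. A difference was called by size, when the level of a gene differed at least 1.5 times from the pooled TGFβR-WT cells and from each of the sets, and intervals of shares are exact Clopper-Pearson 95% intervals that cover counting error only. Levels are corrected UMIs per 10000 corrected UMIs, the correction being that of SCTransform, which brings cells to a common depth. The median number of corrected UMIs per cell lay between 3440 and 3984.5 in the 4 sets of cells, and the median number of genes between 1470 and 1675. Cells of different sets shared few barcodes, namely 14 that the larger TGFβR-WT set had in common with TGFβR-KO, plus 1 for each of 2 other pairs. *Cd3e* was detected in 95.2 to 98.7% of the cells of each set. The summed level of 7 CD4 T cell markers was 95.2 to 115, while no list of another cell type exceeded 1.04, and no neutrophil marker was in the table. Fewer cells with a transcript and less transcript per cell are shown separately below, as the share of cells in which a gene was detected and as its level. No cell type in the table is known to lack these 6 genes, so the share that free RNA alone would give could not be measured.

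The libraries stood apart in ways that touch these genes. *Xist*, which is transcribed from the inactive X chromosome of female cells, was detected in none of the cells labelled TGFβR-KO and none of the larger TGFβR-WT set (limits of 0.101% and 0.423%), but in 77.2% of cells of the smaller TGFβR-WT set, and in 45.4% of TGFβR-CA. *Ddx3y*, a Y-linked gene, was detected in 33.4% and 31.9% of the former and in 9.06% and 14.8% of the latter. The smaller TGFβR-WT set also had the highest *Tgfbr1* of all sets, above that of the cells labelled TGFβR-CA. Levels and shares over all cells are therefore given with both TGFβR-WT sets, and a condition means the label that the cells carry.

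The ligand gene *Tgfb1* (chromosome 7 of mm10, 25687002 to 25705077) was at 1.13 corrected UMIs per 10000 in cells labelled TGFβR-KO, 1.08 in the larger and 2.25 in the smaller TGFβR-WT set, and 1.42 in cells labelled TGFβR-CA. The gene was detected in 32.8% (interval 31.1 to 34.5), 29.5% (26.1 to 33.0), 47.7% (41.9 to 53.5) and 38.4% (35.5 to 41.4) of these cells. The smaller TGFβR-WT set was thus highest, with 2.08 times the level of the larger set. Of all 7490 genes with at least 200 corrected UMIs, 10.2% were at least 1.5 times higher in the smaller set. The interval of its share met none of the others, while those of TGFβR-KO and of the larger set overlapped. Relative to the pooled TGFβR-WT cells the level was 0.770 times in TGFβR-KO and 0.973 times in TGFβR-CA, and neither was called.

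Among clusters, *Tgfb1* was highest or near highest in GC-TFH cells, the follicular helper T cells that the authors placed in germinal centers, and low in TR-TFH cells, their tissue-resident counterpart. GC-TFH cells had 1.61 in TGFβR-KO, 1.68 and 3.64 in the larger and the smaller TGFβR-WT set, and 1.80 in TGFβR-CA. TR-TFH cells had 0.788, 0.793, 1.55 and 1.17 in the same order. GC-TFH cells exceeded TR-TFH cells in each of the 4 sets. They were at least 1.5 times above the other clusters of their own set in TGFβR-KO and in both TGFβR-WT sets (1.51, 1.81 and 1.91 times), but 1.38 times in TGFβR-CA. Of all genes, 15.8%, 14.5% and 18.6% were that far above the other clusters in GC-TFH cells of these 3 sets, so a difference of this size was common in this cluster. In TGFβR-KO, the cycling and tumorigenic clusters also lay high, with 1.64 (39 of 77 cells) and 1.52 (145 of 361 cells). Activated cells reached 3.34 in the smaller TGFβR-WT set (20 of 29 cells) and 2.08 in TGFβR-CA, 1.57 and 1.56 times the other clusters, beside 21.7% and 16.9% of all genes. They had 1.16 in TGFβR-KO and 1.09 in the larger TGFβR-WT set.

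**Figure D1:**
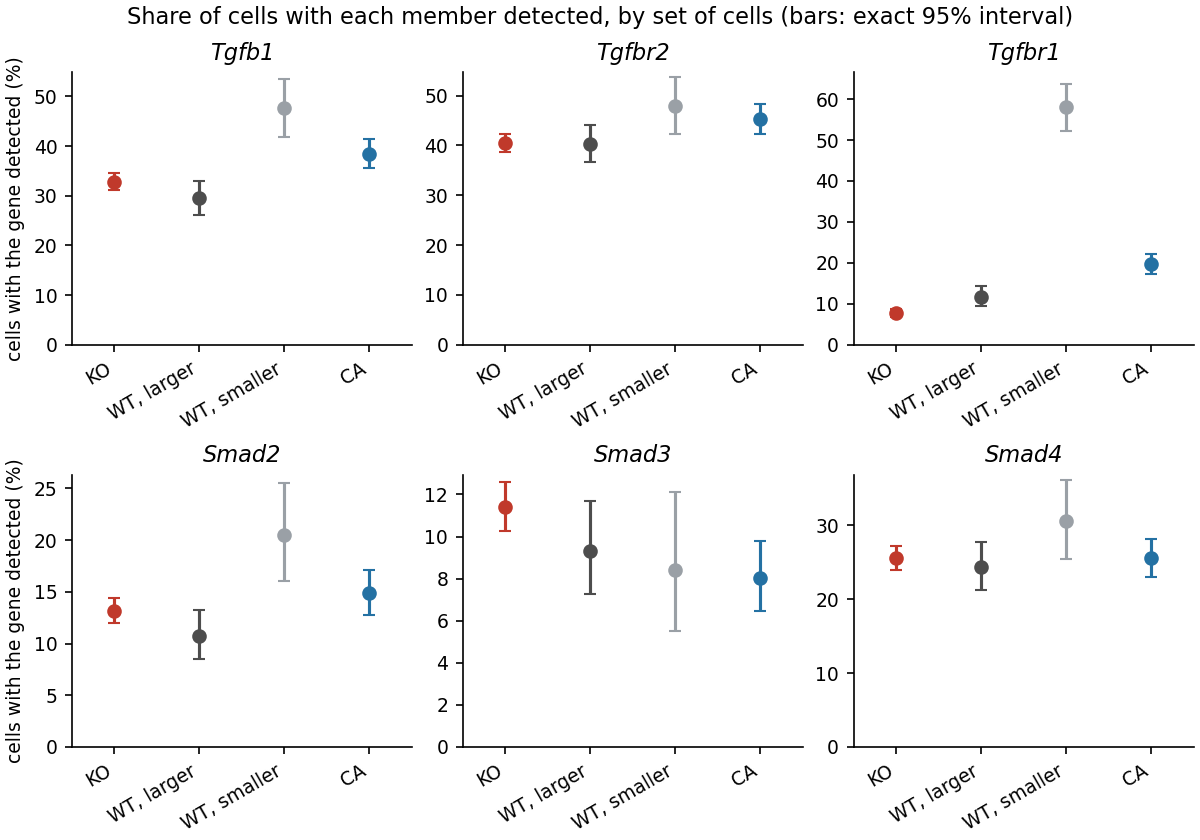
Percent of cells in which each of the 6 genes was detected (at least 1 corrected UMI), for TGFβR-KO (KO), both TGFβR-WT sets and TGFβR-CA (CA), by cell label. Points are shares and bars exact 95% intervals, each axis starts at 0, and scales differ between panels. *Tgfbr1* stands out with 58.1% in the smaller TGFβR-WT set against 7.76 to 19.7% elsewhere.

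*Tgfbr2* (chromosome 9, 116084293 to 116175360) encodes the receptor that binds the ligand and is the gene targeted in TGFβR-KO. It was still detected in cells labelled TGFβR-KO, at 1.48 per 10000 and in 40.4% of cells (38.7 to 42.2), against 1.72 and 40.3% (36.7 to 44.1) in the larger TGFβR-WT set, 1.76 and 48.0% (42.2 to 53.8) in the smaller set, and 1.78 and 45.4% (42.4 to 48.4) in TGFβR-CA. The lowest level was that of TGFβR-KO, at 0.860 and 0.842 times the TGFβR-WT sets, and was not called. The reads come from the 3′ end of transcripts, and the sources used here do not give which exons the deletion removes, so these values do not check the deletion. Level and share did not order the sets alike, since the share in TGFβR-KO was equal to that of the larger TGFβR-WT set within counting error.

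How far *Tgfbr2* in TGFβR-KO lay from its TGFβR-WT levels varied with the cluster. In GC-TFH cells it was at 0.885 in TGFβR-KO, 1.58 and 1.99 in the larger and the smaller TGFβR-WT set, and 1.75 in TGFβR-CA, and it was detected in 25.5% (20.8 to 30.6), 38.3% (30.2 to 46.9), 51.7% (38.2 to 65.0) and 42.2% (36.2 to 48.4) of the cells. Here TGFβR-KO was more than 1.5 times below each of the other sets, a size that 14.4% and 21.7% of all genes reached downward against the larger and the smaller TGFβR-WT set in this cluster. In TR-TFH cells it was at 1.22 against 1.83, 1.68 and 1.79, and in pre-tumorigenic cells at 1.40 against 2.20 and 1.88 in the TGFβR-WT sets, with TGFβR-CA at 1.32. In activated cells TGFβR-KO, at 1.80, was above the larger TGFβR-WT set (1.49), level with the smaller set (1.79) and below TGFβR-CA (2.03). TGFβR-KO was thus below both TGFβR-WT sets in 3 of the 4 clusters that had at least 20 cells in every set. The share of all genes with such a count was not computed.

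Among clusters of at least 20 cells in a set, *Tgfbr2* was lowest in cycling cells, with 0.434 in TGFβR-KO (13 of 77 cells) and 0.332 in the larger TGFβR-WT set (4 of 41 cells). It was 3.48 and 5.44 times lower there than in the other clusters. Cycling cells were at least 1.5 times below the other clusters in 22.2% of all genes in TGFβR-KO and 38.4% in the larger TGFβR-WT set. In 3 of the sets the highest level was in migratory cells, with 1.93 in TGFβR-KO (52.2% of cells), 2.05 in TGFβR-CA (51.9%) and 2.51 (57.5%) in the larger TGFβR-WT set. Only 16 migratory cells were in the smaller TGFβR-WT set, at 1.33, and 4 cycling cells, in which the gene was not detected. The tumorigenic and CTL clusters, which held 361 and 321 TGFβR-KO cells but at most 13 TGFβR-WT cells each, had 1.20 and 1.60 in TGFβR-KO.

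*Tgfbr1* (chromosome 4, 47353222 to 47414931) encodes the kinase that phosphorylates SMAD2 and SMAD3, and TGFβR-CA mice carry an active form of it. It was the only member called in TGFβR-KO, where it was low, and no member was called in TGFβR-CA. For comparison, 5.43% of all genes were called lower in TGFβR-KO and 8.37% in either direction, and 4.01% were called in either direction in TGFβR-CA. Its level was 0.219 in TGFβR-KO, 0.367 in the larger and 2.79 in the smaller TGFβR-WT set and 0.792 in TGFβR-CA. It was detected in 7.76% (6.83 to 8.79), 11.7% (9.43 to 14.3), 58.1% (52.2 to 63.7) and 19.7% (17.4 to 22.1) of cells, so no neighbors in this order had overlapping intervals. TGFβR-KO was 1.68 times below the larger TGFβR-WT set and 12.7 times below the smaller one, where 9.51% and 19.1% of all genes were at least 1.5 times lower. The larger and the smaller TGFβR-WT set differed more from each other than either condition did from the larger set.

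The smaller TGFβR-WT set had 7.59 times the *Tgfbr1* of the larger set. After 0.1 was added to each level, this ratio ranked 3 of 7490 genes from the highest. Cells with at least 2 corrected UMIs of *Tgfbr1* made up 28.9% of the smaller set, 6.19% of TGFβR-CA, 0.987% of the larger set and 0.571% of TGFβR-KO. Cells labelled TGFβR-CA had 2.16 times the level of the larger TGFβR-WT set, beside 3.85% of all genes at least 1.5 times higher there. Against the smaller set they had 0.284 times the level, beside 12.2% of all genes at least 1.5 times lower, and against the pooled TGFβR-WT cells (1.16) 0.685 times. Whether they lie above or below TGFβR-WT therefore depends on which TGFβR-WT cells they are compared with. With each cell thinned to 2955 corrected UMIs, a step added after the data were seen that left out no cell, the shares were 6.02% in TGFβR-KO, 9.95% and 48.6% in the TGFβR-WT sets and 15.8% in TGFβR-CA, in the same order.

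*Hprt*, an X-linked housekeeping gene, moved the other way. It was at 1.58 in TGFβR-KO, 1.34 in the larger and 0.157 in the smaller TGFβR-WT set, and 0.796 in TGFβR-CA, and was detected in 44.6%, 36.2%, 4.36% and 24.6% of these cells. In the ratio of the smaller to the larger TGFβR-WT set it ranked 4 of 7490 genes from the lowest. As background, the mouse allele of this conditional active *Tgfbr1* was made by insertion at the *Hprt* locus, and the sources used here do not say whether RNA from the inserted form is counted as *Tgfbr1*. Within TGFβR-CA, *Xist* was detected in 65.3% (58.5 to 71.6) of the 216 cells with *Tgfbr1* and in 40.5% (37.2 to 43.8) of the 882 without, and *Hprt* in 17.1% and 26.4%. In the smaller TGFβR-WT set, *Hprt* was at 4.62% in cells with *Tgfbr1* and 4.0% in those without, and *Xist* at 78.6% and 75.2%. In the larger set, *Hprt* was detected in 24.1% (15.4 to 34.7) of the cells with *Tgfbr1* and in 37.9% (34.0 to 41.8) of those without. The intervals of the *Hprt* shares did not overlap in TGFβR-CA (12.4 to 22.8 and 23.5 to 29.5), while those of the larger TGFβR-WT set did. The differences were not tested. In TGFβR-KO the *Hprt* shares were 46.3% and 44.4%. The part of these library differences in the *Tgfbr1* values was not tested.

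**Figure D2:**
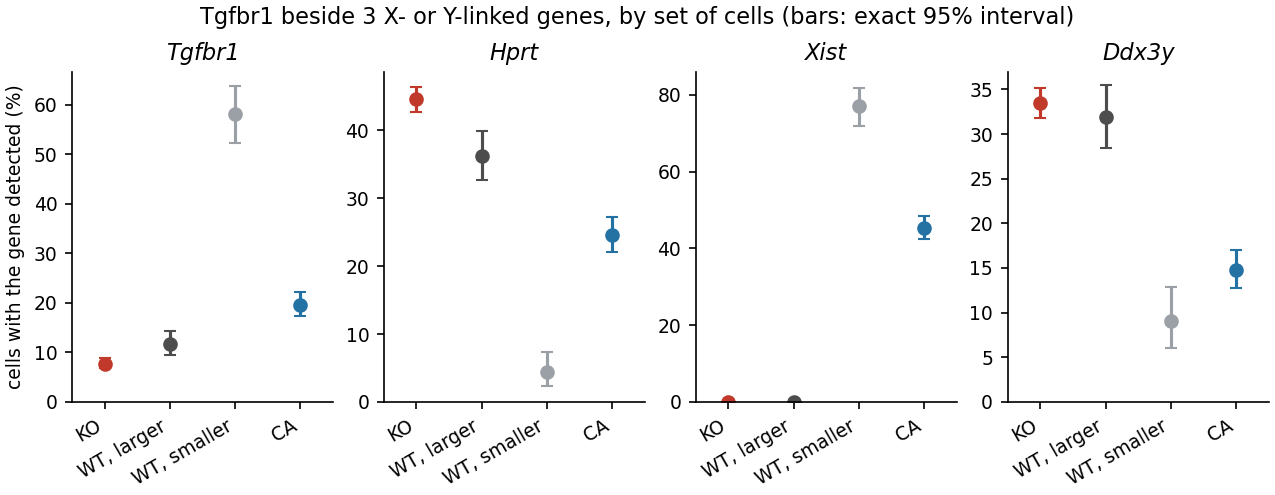
Percent of cells with *Tgfbr1* detected beside the X-linked *Hprt* and *Xist* and the Y-linked *Ddx3y*, in cells labelled TGFβR-KO (KO), both TGFβR-WT sets and cells labelled TGFβR-CA (CA), with exact 95% intervals and scales that differ between panels. The smaller TGFβR-WT set is highest for *Tgfbr1* (58.1%) and *Xist* (77.2%) and lowest for *Hprt* (4.36%), and the cells labelled TGFβR-CA lie between it and the larger TGFβR-WT set for all 4 genes.

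The pre-tumorigenic cluster had the highest *Tgfbr1* of the pooled TGFβR-WT clusters with at least 20 cells, at 3.17 per 10000 against 0.983 in the other TGFβR-WT cells. All 36 of its *Tgfbr1*-positive cells, of 79, belonged to the smaller set. In that set 36 of 52 pre-tumorigenic cells were positive (69.2%, 54.9 to 81.3), at a level of 4.61. In the larger set it was 0 of 27, which allows a share of up to 11.1% by the limit of 3 counts and 12.8% by the exact interval. The other cells of that set were at 12.2%, between these limits, so whether the share in its pre-tumorigenic cells was lower is not settled. The smaller set held 65.8% (54.3 to 76.1) of the TGFβR-WT pre-tumorigenic cells, and 8.89 to 29.1% of each other TGFβR-WT cluster with at least 20 cells, so the pooled cluster values mix the sets in unequal parts. The ratio of the pre-tumorigenic to the other cells was 3.23 in the pooled TGFβR-WT cells and 1.90 within the smaller set. These are ratios of levels. Of the other cells of the smaller set 55.7% were positive, a share inside the interval of its pre-tumorigenic cluster. In this cluster 10.3% of all genes in the pooled TGFβR-WT cells and 13.8% in the smaller set were at least 1.5 times above the other clusters.

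In the smaller TGFβR-WT set *Tgfbr1* was not limited to the pre-tumorigenic cells. It was detected in 67.2% (53.7 to 79.0) of GC-TFH cells, 55.2% (35.7 to 73.6) of activated cells and 50.4% (41.6 to 59.2) of TR-TFH cells, and each of these shares was above that of the same cluster in the larger set (13.5%, 14.8% and 11.3%) and in TGFβR-CA (18.3%, 39 of 130 cells and 17.8%). The intervals of the smaller set overlapped those of TGFβR-CA only in activated cells. In TGFβR-CA the pre-tumorigenic level was 1.25, which was 1.66 times that of the other clusters, a size reached by 8.95% of all genes. The share of positive cells was nevertheless alike, 19.3% (11.4 to 29.4) against 19.7% (17.3 to 22.3), so the higher level came from more corrected UMIs in the cells that had any. Among TGFβR-CA clusters of at least 20 cells, activated cells had the highest *Tgfbr1*, with 1.45 and 39 of 130 cells.

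In TGFβR-KO *Tgfbr1* was low throughout. It was highest in activated cells, with 0.302 and 35 of 318 cells, and lowest in cycling cells, with 0.0929 and 3 of 77 cells. The pre-tumorigenic cells had 0.184 (16 of 230 cells) and the tumorigenic cells 0.127 (18 of 361 cells). The tumorigenic level was 1.82 times below that of the other clusters, and 26.0% of all genes were at least 1.5 times lower in that cluster. The intervals of the shares overlapped (2.98 to 7.77% and 7.13 to 9.26%), and their difference was not tested. TGFβR-KO was below both TGFβR-WT sets in 3 of 4 clusters with at least 20 cells in every set. The exception was the pre-tumorigenic cells, where the larger TGFβR-WT set had no *Tgfbr1*. The share of all genes with such a count was not computed.

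**Figure D3:**
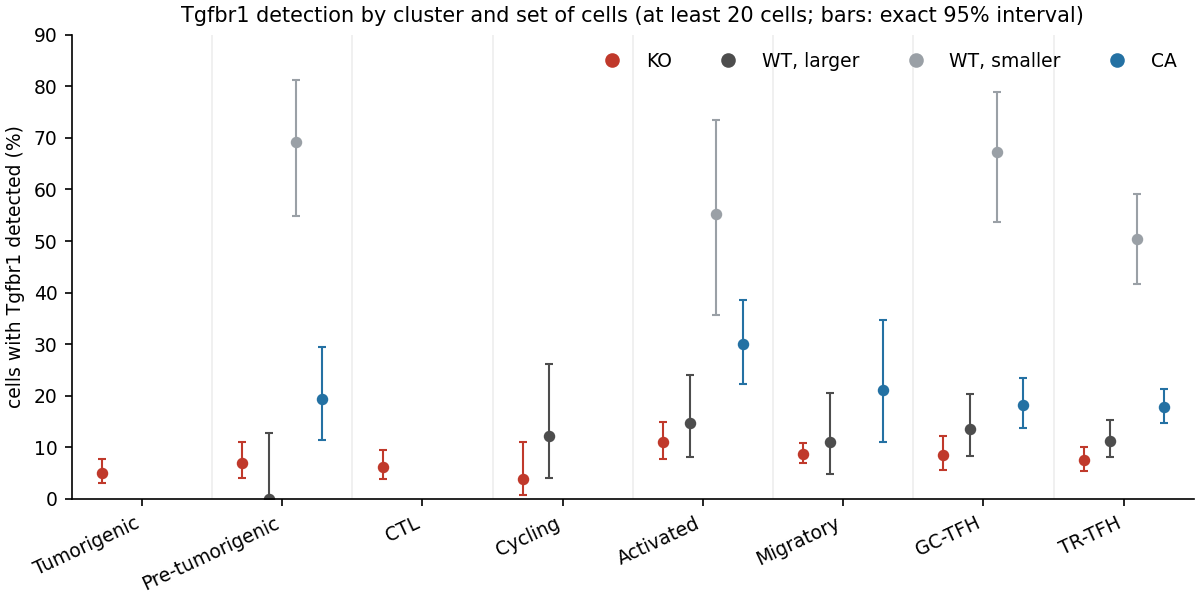
Percent of cells with *Tgfbr1* detected in each authors' cluster, by set of cells, with exact 95% intervals. Sets with fewer than 20 cells in a cluster are not drawn. The smaller TGFβR-WT set lies between 50.4 and 69.2% in the 4 clusters where it has at least 20 cells, and the larger set is at 0 in the pre-tumorigenic cluster and at 11.0 to 14.8% in the others.

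Both receptor genes were detected in the same cell in 3.63% (2.99 to 4.37) of cells labelled TGFβR-KO, 4.09% (2.76 to 5.82) of the larger and 29.5% (24.4 to 35.1) of the smaller TGFβR-WT set, and 9.74% (8.05 to 11.7) of cells labelled TGFβR-CA. This order followed that of *Tgfbr1*. *Tgfbr2* was detected in 46.8%, 34.9%, 50.9% and 49.5% of *Tgfbr1*-positive cells, and in 39.9%, 41.1%, 44.0% and 44.3% of *Tgfbr1*-negative cells of these sets. The intervals of positive and negative cells overlapped in all 4 sets, for example 40.2 to 53.4 and 38.1 to 41.8 in TGFβR-KO. Such overlap does not show that the shares are equal, and the difference was not tested.

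*Smad2* and *Smad3* encode the transducers that the receptor phosphorylates. *Smad2*, on chromosome 18, was at 0.370 in TGFβR-KO, 0.323 and 0.544 in the larger and the smaller TGFβR-WT set and 0.424 in TGFβR-CA, and was detected in 13.1% (11.9 to 14.4), 10.7% (8.54 to 13.2), 20.5% (16.0 to 25.5) and 14.8% (12.8 to 17.1) of cells. The smaller TGFβR-WT set had 1.68 times the level of the larger one, while the shares in TGFβR-KO and TGFβR-CA had overlapping intervals. *Smad2* was the most even of the members over clusters. Over 20 profiles of a cluster in a set with at least 50 cells, its level ran from 0.257 to 0.580, and its SD on the log2 scale lay at the 7.0th percentile of all genes, whereas that of *Tgfbr1* lay at the 98.7th.

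*Smad3* (chromosome 9, 63646767 to 63757994) had its highest level over all cells in TGFβR-KO. It was at 0.324 there, 0.279 and 0.214 in the larger and the smaller TGFβR-WT set and 0.240 in TGFβR-CA, and was detected in 11.4% (10.3 to 12.6), 9.31% (7.27 to 11.7), 8.39% (5.50 to 12.1) and 8.01% (6.48 to 9.78) of cells. The TGFβR-KO interval overlapped those of both TGFβR-WT sets but not that of TGFβR-CA. Relative to the pooled TGFβR-WT cells the level was 1.26 times in TGFβR-KO and was not called. With clusters weighted alike it was 0.987 times, so the direction depended on the weighting. That weighting takes in the tumorigenic and CTL clusters, in which pooled TGFβR-WT had only 5 and 13 cells. Cells with at least 2 corrected UMIs were 0.874% in TGFβR-KO and 1.09% in TGFβR-CA, and a smaller share in pooled TGFβR-WT.

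Within TGFβR-KO, *Smad3* was highest in the CTL cluster, with 0.479 (48 of 321 cells), and the tumorigenic cluster, with 0.418 (52 of 361 cells). It was lowest in activated cells, with 0.196 (23 of 318 cells), 0.578 times the other clusters, beside 6.11% of all genes at least 1.5 times lower. CTL cells were 1.57 times above the other TGFβR-KO clusters, a size reached by 5.59% of all genes. Activated cells went the other way in TGFβR-WT, with 0.404 and 0.325 in the larger and the smaller set, where they rested on 13 and 3 positive cells. They were 1.55 and 1.61 times above the other clusters there, beside 19.2% and 21.7% of all genes. In the pre-tumorigenic cluster *Smad3* was detected in 27 of 230 TGFβR-KO cells, 9 of 83 TGFβR-CA cells and 2 of 79 TGFβR-WT cells. These shares were 11.7% (7.88 to 16.6), 10.8% (5.08 to 19.6) and 2.53% (0.308 to 8.85), with intervals that all overlapped. Both TGFβR-WT positive cells were in the smaller set. Of all genes, 27.4% and 21.7% were at least 1.5 times higher in TGFβR-KO than in the larger and the smaller TGFβR-WT set in this cluster.

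*Smad4*, on chromosome 18, encodes the partner shared by the receptor-activated SMADs and was the most alike across conditions. It was at 0.783 in TGFβR-KO, 0.818 and 0.890 in the larger and the smaller TGFβR-WT set and 0.780 in TGFβR-CA, and was detected in 25.5% (24.0 to 27.1), 24.4% (21.3 to 27.7), 30.5% (25.4 to 36.1) and 25.5% (22.9 to 28.2) of cells, all with overlapping intervals. Its clusters differed more. Cycling cells were low, at 0.341 in TGFβR-KO and 0.332 in the larger TGFβR-WT set. Pre-tumorigenic TGFβR-WT cells were low as well, at 0.439 in the larger (4 of 27 cells) and 0.248 in the smaller set (5 of 52 cells), against 0.609 in TGFβR-KO (47 of 230 cells) and 0.690 in TGFβR-CA (18 of 83 cells). The intervals of these shares all overlapped, at 4.19 to 33.7%, 3.20 to 21.0%, 15.4 to 26.2% and 13.4 to 32.1%. Within the smaller TGFβR-WT set the pre-tumorigenic level was 4.11 times below the other clusters, a size of at least 1.5 being reached by 30.7% of all genes. In TGFβR-KO the highest *Smad4* level was in the tumorigenic cluster, with 0.913 (116 of 361 cells).

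**Figure D4:**
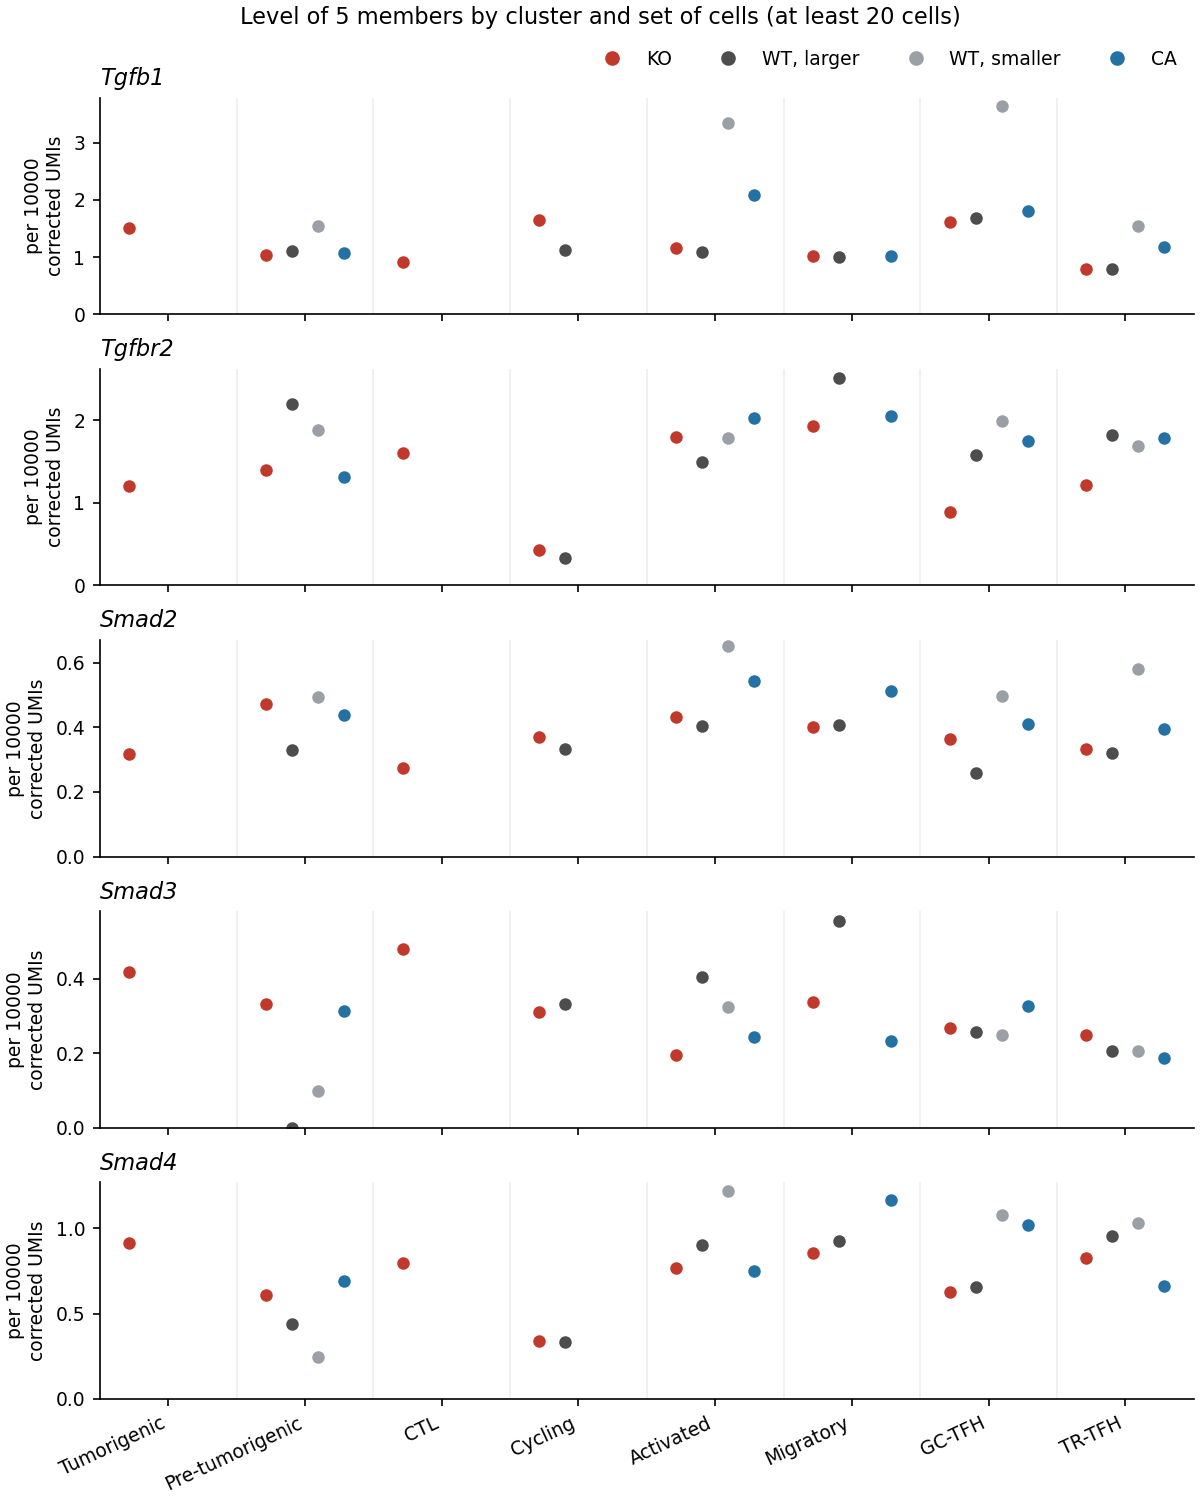
Level (corrected UMIs per 10000 corrected UMIs) of *Tgfb1*, *Tgfbr2*, *Smad2*, *Smad3* and *Smad4* in each authors' cluster, by set of cells. Each point sums the cells of a set in a cluster, and points of fewer than 20 cells are not drawn. *Tgfbr2* is lowest in cycling cells (0.434 and 0.332), and *Tgfb1* is higher in GC-TFH than in TR-TFH cells in every set. *Smad3* and *Smad4* are low in the pre-tumorigenic TGFβR-WT cells, on few positive cells. In that cluster 37.6% and 30.7% of all genes were at least 1.5 times below the other clusters of the larger and the smaller set.

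At least 2 of the 6 genes were detected together in 39.9% of cells labelled TGFβR-KO, 33.1% of the larger and 73.8% of the smaller TGFβR-WT set, and 47.3% of TGFβR-CA. At least 1 corrected UMI of none of the 6 genes was found in 22.4% of cells labelled TGFβR-KO, 23.0% of the larger and 9.40% of the smaller TGFβR-WT set and 17.0% of TGFβR-CA, and all 6 were found together in 1 cell, of the larger TGFβR-WT set. Most cells thus showed only part of the pathway at this depth, and a gene that was not detected in a cell cannot be called absent from it.

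The rest of the pathway was examined through a list of 68 genes, of which 44 were in the table and 37 had at least 200 corrected UMIs. In TGFβR-KO, 6 of the 37 were called lower and 1 higher, beside 5.43% and 2.94% of all genes. In TGFβR-CA, 1 was called lower and 0 higher, beside 2.75% and 1.26%. The median ratio over the list was 0.920 against the larger and 0.819 against the smaller TGFβR-WT set in TGFβR-KO, and 0.994 and 0.874 in TGFβR-CA. The corresponding medians over all genes were 0.920, 0.919, 0.949 and 0.945. The median of the list thus equalled that of all genes in TGFβR-KO against the larger set, lay below it against the smaller set in both conditions, and lay above it in TGFβR-CA against the larger set. On the log2 scale, the median over all genes of TGFβR-KO against pooled TGFβR-WT was -0.13. Both comparisons share the same TGFβR-WT cells.

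Of the 6 genes called lower in TGFβR-KO, 4 act on SMADs or on receptor turnover. *Pmepa1*, which is induced by TGFβ and restrains SMAD activation, was at 0.113 in TGFβR-KO, 0.842 and 1.26 in the larger and the smaller TGFβR-WT set and 0.746 in TGFβR-CA, a ratio 7.43 and 11.1 times lower in TGFβR-KO. *Skil*, a SMAD corepressor that is also a TGFβ target, was at 0.314 against 0.946 and 1.61, with 1.07 in TGFβR-CA. Its relative *Ski* was at 0.821 against 1.24 and 1.43, and lies close to the limit, at 1.51 times below the larger set. *Smurf2*, a ubiquitin ligase that targets the receptors, was at 0.246 against 0.590 and 0.651. *Pmepa1* and *Skil* were lower in TGFβR-KO than in both TGFβR-WT sets in each of the 4 clusters with at least 20 cells in every set. The same held for *Smad7*, the inhibitory SMAD, at 0.586 against 0.806 and 1.29. It did not reach 1.5 against the larger set and was not called. How many of all genes lay below both sets in all these clusters was not counted.

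The other genes called in TGFβR-KO act at the cell surface or on the ligand. *Tgfbr3*, the coreceptor betaglycan that presents ligand to TGFBR2, was at 0.0331 in TGFβR-KO and 0.263, 0.256 and 0.278 in the TGFβR-WT sets and TGFβR-CA, and was detected in 1.18% of TGFβR-KO cells against 8.39 to 9.11% in the others. *Bmpr2*, a receptor for BMP ligands, was at 0.0531 against 0.132 and 0.231. *Furin*, the protease that cleaves the TGFβ1 precursor, was at 8.24 in TGFβR-KO, 4.15 and 3.51 in the TGFβR-WT sets and 2.0 in TGFβR-CA. It was the only listed gene called in both conditions, higher in TGFβR-KO and lower in TGFβR-CA. Each call was 1 of 37 listed genes, near the 2.94% and 2.75% of all genes called in these directions. The paper names *Furin* among genes high in the tumorigenic cluster. That cluster held 12.1% of TGFβR-KO, 0.497% of TGFβR-WT and 0.182% of TGFβR-CA cells. The part of the cluster makeup in the *Furin* levels was not tested. Of the 10 genes of the non-Smad branch 0 were called in either condition, and at the 8.37% and 4.01% of all genes called this number is near the background.

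**Figure D5:**
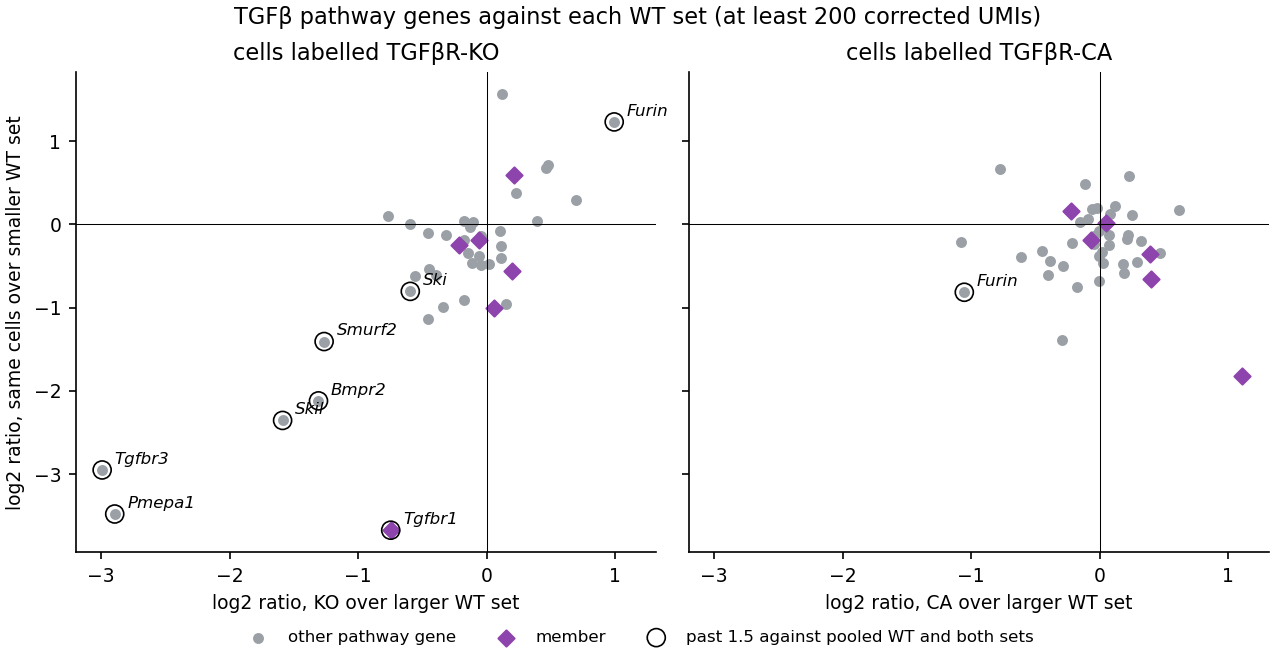
Log2 ratio of the level of each TGFβ pathway gene with at least 200 corrected UMIs against the larger (horizontal) and the smaller (vertical) TGFβR-WT set, in cells labelled TGFβR-KO (left) and TGFβR-CA (right). Diamonds are the 6 members and circled genes differ at least 1.5 times from the pooled TGFβR-WT cells and both sets. *Pmepa1*, *Tgfbr3* and *Skil* lie far below both sets in TGFβR-KO, and the *Tgfbr1* diamond of TGFβR-CA lies above the larger and below the smaller set.

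Genes whose levels ran most alike to each member were taken over the same 20 profiles, among 7484 genes. They are a description, since profiles of one set share a library. For *Tgfbr1* they were *Atp5l* and *Raly* (Pearson's r of 0.92 each), for *Tgfbr2* *Gpbp1l1*, *Mark2* and *Ppp2r5a* (0.83, 0.83 and 0.82), and for *Tgfb1* *Ube2m*, *Hdlbp* and *Bax* (0.86, 0.83 and 0.83). *Smad2* ran with *Oaz1*, *Gm11454* and *Arpc1b* (0.76, 0.75 and 0.73), *Smad3* with *Zfp511*, *Dctn3* and *Sars* (0.78, 0.77 and 0.73), and *Smad4* with *Pcnx* and *Ski* (0.79 and 0.78). Of the genes named here by likeness, only *Ski* was on the pathway list.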

How the data were processed

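According to the methods and the submitters' processing notes, the authors ran Cell Ranger 3.1.0 on mm10, filtered cells by gene number and mitochondrial share, corrected UMI numbers with SCTransform in Seurat, and integrated and clustered the libraries. Clusters of γδ T cells and of epithelium were dropped before deposit. Each deposited value is a natural log, of 1 plus the corrected UMI number. Undoing the log gave whole numbers within 1e-06 for all values above 0. Since these are corrected numbers, count models were not used, and the original depth of a cell is unknown. Cell conditions and clusters are those the authors deposited with the table.

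A level is the sum of a gene's corrected UMIs over a group of cells, per 10000. Differences were called at a ratio of 1.5 against the pooled TGFβR-WT cells and each set, over genes with at least 200 corrected UMIs. Likeness is Pearson's r of log2 levels after 0.1 was added, over profiles of at least 50 cells. Named genes are the 6 members, the 3 genes most like each (some are not reported here), and listed pathway genes past the ratio. *Smad7*, *Hprt*, *Xist* and *Ddx3y* were chosen after their values were seen. The members and lists were chosen with earlier results of these data known. A count of 0 is given the limit of 3 counts. UMIs are not independent of cell and library, and intervals leave out variation between mice. Doublets were not called; an alternative left out the 5% of cells of each set with the most genes. Gene positions are from GENCODE, on GRCm38 (mm10). The steps were tested on simulated data and used Python 3.11.15, numpy 2.4.6, scipy 1.17.1, pandas 2.3.3 and matplotlib 3.10.9.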

Additional observations from a re-analysis of the deposited data

Results flagged for a closer look

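For 2 genes the ratio of a cluster to the other clusters of its set lay past 1.5 times in opposite directions in different sets of cells. The difference between the sets was not tested for either gene. For *Tgfbr1*, the ratio of pre-tumorigenic to other cells was 1.90 in the smaller TGFβR-WT set and 1.66 in cells labelled TGFβR-CA, but 0 in the larger TGFβR-WT set, where 0 of 27 pre-tumorigenic cells had the gene. The exact interval of that share reaches 12.8% and includes the 12.2% of the other cells, while the limit of 3 counts lies below them. Whether the share is lower there is therefore not settled. For *Smad3*, the ratio of activated to other cells was 1.55 in the larger and 1.61 in the smaller TGFβR-WT set, on 13 and 3 positive cells, and 0.578 in cells labelled TGFβR-KO, on 23 positive cells of 318. In the larger set it was 1.27 without the cells with the most genes and 1.38 with mitochondrial and ribosomal protein genes left out of the denominator.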

How the results depend on the processing

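No paired analysis was possible because TGFβR-WT cells cannot be assigned to a numbered sample and no test was made. No replicate could be left out, since neither TGFβR-WT set is tied to a sample, and each set was used alone instead. Of 96 recomputed ratios between conditions, 80 stayed within the counting error of the main ratio. The only called ratio, *Tgfbr1* in TGFβR-KO, kept its direction. Against each TGFβR-WT set alone this was already required by the call. Against the larger and the smaller TGFβR-WT set alone, *Tgfbr1* was 0.596 and 0.0785 times in TGFβR-KO and 2.16 and 0.284 times in TGFβR-CA, and *Tgfb1* 1.04 and 0.500 times in TGFβR-KO and 1.32 and 0.633 times in TGFβR-CA. *Smad2* was 1.15 and 0.681 times in TGFβR-KO, and 1.31 and 0.780 times in TGFβR-CA. With clusters weighted alike and TGFβR-WT pooled, *Tgfbr1* in TGFβR-CA was 0.829 times and *Smad3* 0.692 times. In TGFβR-KO *Tgfbr2* was 0.766, *Tgfb1* 0.666 and *Smad3* 0.987 times. This weighting takes in the tumorigenic and CTL clusters, which had only 5 and 13 pooled TGFβR-WT cells and 2 and 3 TGFβR-CA cells. The *Tgfbr1* ratio of pre-tumorigenic to other TGFβR-WT cells was 1.90 in the smaller set alone. In the larger set TGFβR-WT detection was 11.7% (*Tgfbr1*), 29.5% (*Tgfb1*) and 10.7% (*Smad2*), and in the smaller set 58.1%, 47.7% and 20.5%, with 48.0% for *Tgfbr2* and 30.5% for *Smad4*. At 2 or more corrected UMIs all shares were lower by construction, in the order TGFβR-KO, pooled TGFβR-WT and TGFβR-CA: *Tgfbr1* 0.571, 9.24 and 6.19%, *Tgfbr2* 12.1, 14.4 and 17.6%, *Tgfb1* 7.53, 10.9 and 12.2%, *Smad2* 0.941, 0.894 and 1.73%, *Smad3* 0.874, 0.497 and 1.09%, and *Smad4* 4.10, 4.27 and 4.64%. Leaving out 32 cells with a shared barcode, 3 cells above 5% mitochondrial UMIs or 254 cells with the most genes kept all ratios and shares within counting error. Pathway genes higher in TGFβR-KO numbered 2 at 50 corrected UMIs, 0 at a ratio of 2, and 2 and 4 against the larger and the smaller set alone. Those lower numbered 2 at 1000 corrected UMIs and 12 against the smaller set. In TGFβR-CA, 2 were higher at 50 corrected UMIs and 1 against each set alone, and 0 were lower at a ratio of 2, 4 against the larger and 5 against the smaller set. The genes most like a member were the least stable. With profiles of 20 cells (23 profiles), 1 of the 3 remained for *Tgfbr1* and *Smad4* and 0 for *Tgfbr2*, *Tgfb1* and *Smad3*. With Spearman's correlation, 0 remained for *Tgfbr1*, *Tgfbr2* and *Tgfb1* and 1 for *Smad3* and *Smad4*, and with 1 added per 10000, 1 remained for *Smad3*. The causes were not tested. Corrected UMIs do not keep depth, and clusters of few cells, such as the 27 pre-tumorigenic cells of the larger TGFβR-WT set, limit what a 0 shows.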
